A study of Mus musculus with 20 samples.

Results

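The 41 genes described here encode the enzymes of the path from glucose to lactate, the enzymes that run its irreversible steps backwards to make glucose, the kinases that close the entry of pyruvate into the mitochondrion, and the carriers that take lactate across the cell membrane. They were chosen by name from the gene count table of a mouse kidney tumor series and were followed in all 20 libraries. The table holds 54532 genes, of which 15354 had enough counts to be tested, and all 41 members were among these.

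The tumors came from the Cre-less AAV model. C57BL/6 mice carried 1 copy of a Rosa26 LSL-Cas9-EGFP allele and 1 Pax8 Cre allele (LSL-Cas9/+; Pax8 Cre/+), and AAV that encoded sgRNAs against Vhl, Pbrm1, Keap1 and Tsc1 was injected into their kidneys. Pax8 drives Cre, and so Cas9, throughout the renal tubule. The 10 tumors came from 10 mice, and the 10 normal kidney samples are kidney regions of those animals, so both groups shared the strain and the Cas9 and Cre alleles. The paper describes its injection procedure for young adult mice of both sexes, without naming the mice sampled here. Sex was not among the sample labels used. Neither the age at sampling nor whether the sampled normal region had received AAV is given in the sources used here. Each sample is bulk tissue, and a tumor may hold cells with different edits beside stroma, so a value is an average over a mixture.

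Glycolysis splits glucose into pyruvate and yields ATP without oxygen, and lactate dehydrogenase then turns pyruvate into lactate. Nearly every step is served by several isozymes from separate genes, which differ in kinetics, in regulation and in the tissue that uses them. The proximal tubule of the healthy kidney burns fatty acids and lactate and, beside the liver, is a main site where the body makes glucose, through pyruvate carboxylase (Pcx), PEP carboxykinase (Pck1), fructose bisphosphatase (Fbp1) and glucose-6-phosphatase (G6pc). The Vhl protein marks HIF transcription factors for destruction when oxygen is present, and many glycolytic genes are known HIF targets. HIF binds DNA at the core letters ACGTG or GCGTG.

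Total counts lay between 14737516 and 26679704 in normal kidneys and between 18447394 and 24902973 in tumors. Levels are given as CPM, counts scaled to a common library total with edgeR's TMM factors. Of the 4 targeted genes, mRNA of Vhl was lower in tumors (log2 fold change -0.49, edgeR adjusted p = 0.00179), Tsc1 was lower (-0.61, p = 0.00871), Keap1 was higher (0.83, p = 1.3e-07) and Pbrm1 did not pass (-0.28, p = 0.23). Guide cuts need not change the amount of mRNA. The tissue markers moved too. Summed loop of Henle and distal tubule markers were 4010.3 to 9506 CPM in normal kidneys and 0.571 to 8.75 CPM in tumors, while summed proximal tubule markers overlapped (2893 to 16466 against 1224 to 10884 CPM; 0 of 11 tested rose and 4 fell). In bulk tissue, fewer cells of a type and less RNA per cell cannot be told apart. Several libraries stood apart. Tumor 7 had the lowest proximal tubule sum, and the highest macrophage and neutrophil sum (1759 CPM) and fibroblast sum (2225 CPM). The TMM factor was 0.749 in normal kidney 9, and 1.03 to 1.14 in the remaining kidneys. Normal kidneys 5, 7 and 8 had tubule injury marker sums of 3056, 5086 and 2040.2 CPM against a median of 102 over the 10. Where leaving these libraries out changed a call, or moved the called fold change of a gene by over 1.5 times, the value without them is given beside it.

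The stretches in front of 8 genes are shown as examples, both partners at each of 4 steps from the lower part of the path: phosphoglycerate mutase, pyruvate kinase, lactate dehydrogenase and lactate export. They were picked with the values known, and hold the member with the largest rise (Slc16a3) and the one with the largest fall (Pgam2). Each is the 250 bases before a RefSeq transcription start (GRCm38.p6), read 5′ to 3′ on the strand of the gene, in lower case with matches to ACGTG or GCGTG on either strand in capitals. Where a gene has several starts, the one with most matches is shown.
Pgam1, chr19:41911621-41911870, plus strand: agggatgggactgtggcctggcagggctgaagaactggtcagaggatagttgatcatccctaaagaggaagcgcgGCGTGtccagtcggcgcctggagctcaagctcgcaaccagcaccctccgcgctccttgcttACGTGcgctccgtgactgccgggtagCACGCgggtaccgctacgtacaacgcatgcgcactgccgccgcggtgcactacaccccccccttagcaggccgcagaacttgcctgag
Pgam2, chr11:5803797-5804046, minus strand: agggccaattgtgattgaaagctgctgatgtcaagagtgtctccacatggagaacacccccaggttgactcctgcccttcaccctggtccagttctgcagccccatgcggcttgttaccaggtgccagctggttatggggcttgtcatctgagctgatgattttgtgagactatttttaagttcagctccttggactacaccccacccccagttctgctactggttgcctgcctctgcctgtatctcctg
Pkm, chr9:59656977-59657226, plus strand: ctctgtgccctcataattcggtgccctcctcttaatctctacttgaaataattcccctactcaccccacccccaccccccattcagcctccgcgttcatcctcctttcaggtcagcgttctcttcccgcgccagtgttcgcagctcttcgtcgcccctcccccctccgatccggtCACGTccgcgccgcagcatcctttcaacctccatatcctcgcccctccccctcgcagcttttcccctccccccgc
Pklr, chr3:89135892-89136141, plus strand: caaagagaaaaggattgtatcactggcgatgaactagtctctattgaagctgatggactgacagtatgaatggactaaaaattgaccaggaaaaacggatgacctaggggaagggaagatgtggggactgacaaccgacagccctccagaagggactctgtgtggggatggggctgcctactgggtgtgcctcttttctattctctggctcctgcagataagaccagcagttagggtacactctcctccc
Ldha, chr7:46845554-46845803, plus strand: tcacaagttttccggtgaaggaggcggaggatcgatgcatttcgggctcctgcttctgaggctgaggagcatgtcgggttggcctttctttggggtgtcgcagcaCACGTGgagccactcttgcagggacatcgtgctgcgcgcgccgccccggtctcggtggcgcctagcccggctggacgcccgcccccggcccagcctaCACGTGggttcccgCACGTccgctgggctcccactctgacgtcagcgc
Ldhb, chr6:142507958-142508207, minus strand: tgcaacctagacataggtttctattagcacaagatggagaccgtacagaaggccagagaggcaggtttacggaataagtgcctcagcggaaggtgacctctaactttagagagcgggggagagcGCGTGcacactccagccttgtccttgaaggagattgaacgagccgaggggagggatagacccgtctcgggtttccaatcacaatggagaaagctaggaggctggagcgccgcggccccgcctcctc
Slc16a3, chr11:120948817-120949066, plus strand: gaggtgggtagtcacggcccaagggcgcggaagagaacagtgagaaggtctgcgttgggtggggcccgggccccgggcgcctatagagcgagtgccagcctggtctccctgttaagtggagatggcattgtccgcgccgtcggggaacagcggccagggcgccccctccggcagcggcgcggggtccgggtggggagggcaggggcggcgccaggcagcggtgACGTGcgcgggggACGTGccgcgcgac
Slc16a1, chr3:104638414-104638663, plus strand: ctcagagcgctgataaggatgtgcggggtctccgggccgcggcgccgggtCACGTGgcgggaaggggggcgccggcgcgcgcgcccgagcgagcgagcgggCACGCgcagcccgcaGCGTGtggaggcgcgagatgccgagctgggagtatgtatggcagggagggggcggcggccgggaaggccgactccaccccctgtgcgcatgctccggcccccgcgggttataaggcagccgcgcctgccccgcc

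The window of Ldha held 5 matches, and that of its partner Ldhb held 1. The palindrome CACGTG counts on both strands, so each copy of it gives 2 matches. Pgam1 had 3 matches and Pgam2 had 0, Pkm had 1 and Pklr 0, and the carrier genes Slc16a3 and Slc16a1 had 2 and 4. Over all members, 32 of 41 genes (78%) had a start with either motif in this window, against 41.5% of the 27025 genes in the promoter table. By single windows the shares were 67.7% of 62 member windows and 38.6% of all 32851. A match is a run of letters and no measure of binding, and Pklr, with the third largest rise among members, had none.

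Tumors and normal kidneys were compared to learn which enzyme of each step was more or less abundant as mRNA. By edgeR's quasi-likelihood test, 25 of the 41 members rose in tumors and 5 fell at a Benjamini-Hochberg adjusted p under 0.05, and 11 did not pass. Over all 15354 genes tested, 23.6% rose and 23.8% fell, so 61.0% of members against 23.6% rose and 12.2% against 23.8% fell. Past a 2-fold change as well, 20 members rose and 1 fell (48.8% and 2.44%), against 10.8% and 12.7% of all genes. For 15 members every tumor lay above every normal kidney, and for 1 every tumor lay below, against 5.87% and 4.74% of genes tested. The median log2 fold change was 0.92 over members and -0.02 over all genes.

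By branch, the glycolytic path held most of the rises. Of its 20 genes from hexokinase to pyruvate kinase, 18 rose and 2 fell, namely Pfkm and Pgam2. Of 4 PFKFB regulators, 2 rose and 2 did not pass. Among 5 lactate genes, 3 rose, 1 fell and 1 did not pass, and of the 5 genes at the pyruvate dehydrogenase gate 1 rose and 4 did not pass. Of 6 gluconeogenic genes 1 rose, 2 fell and 3 did not pass, and the fructose kinase Khk did not pass. The shares that rose and fell were 90% and 10% for the glycolytic path, 50% and 0% for regulators, and 60% and 20% for lactate genes. At the gate they were 20% and 0%, and for gluconeogenic genes 16.7% and 33.3%. Over all genes tested they were 23.6% and 23.8%. Without normal kidneys 5, 7 and 8 the counts over members were 22 rises and 7 falls, and without normal kidney 9 and tumor 7 they were 25 and 6. Over all genes, 8245 of 15834 and 8668 of 15353 passed in these fits, 51% and 46.9% of them higher. With all libraries 7292 of 15354 passed, 49.8% of them higher. The number of members that fell was 8 without normal kidney 7 or without tumor 5. The number past a 2-fold fall was 4 without normal kidney 7, 3 without normal kidney 5 or tumor 8, and 2 without any one of normal kidneys 2 and 9 and tumors 1, 4, 5 and 7.

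**Figure D1:**
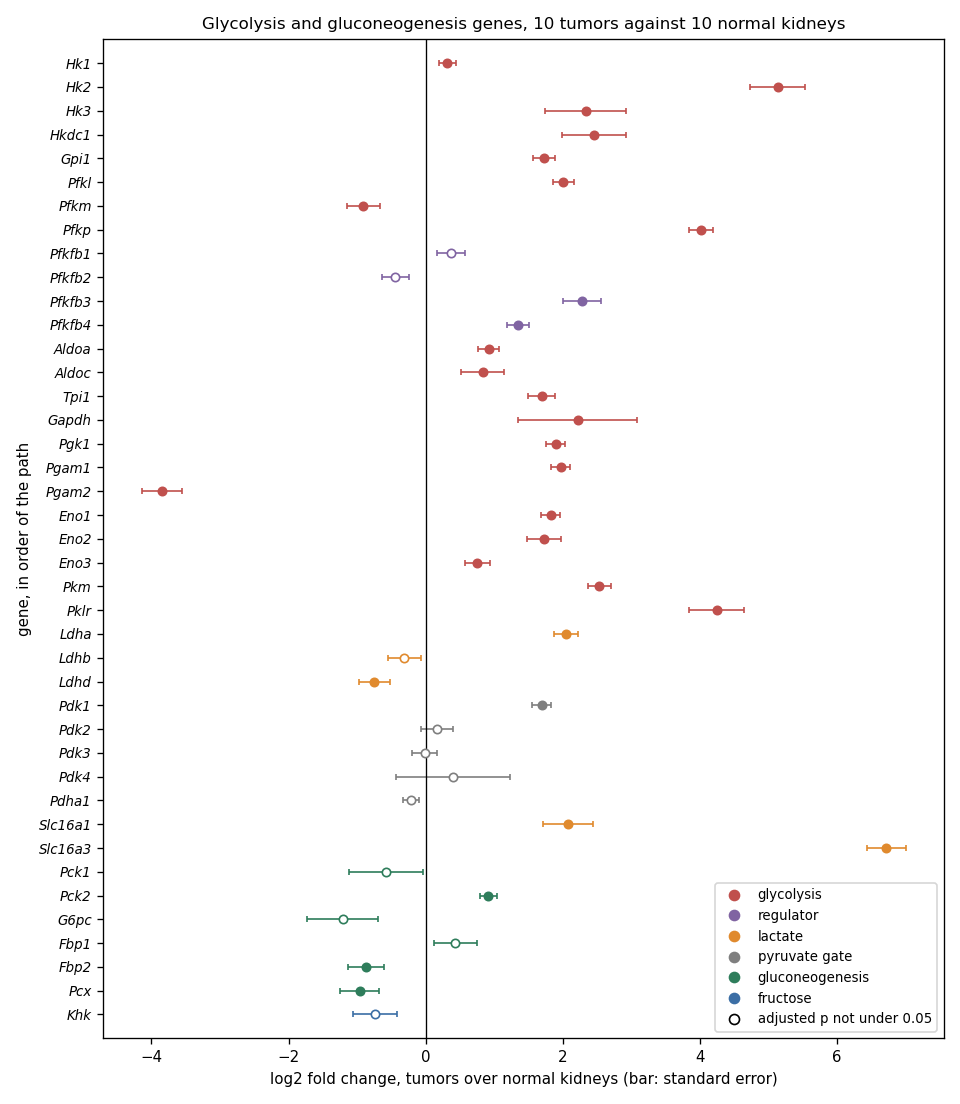
Log2 fold change of each of the 41 members in tumors over normal kidneys (n = 10 each), in the order of the path from top to bottom, with bars for the standard error, filled points for an adjusted p under 0.05 and color for the branch. Slc16a3 at 6.71 and Pgam2 at -3.85 mark the ends, and all but 2 of the red glycolytic points lie to the right of 0.

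Hexokinases trap glucose in the cell as glucose-6-phosphate, and the step changed from a single main enzyme to a pair. Hk2 (chr6:82725025-82774454), the insulin- and HIF-responsive form bound to mitochondria, read 1.44 to 13.8 CPM (median 4.74) in normal kidneys and 81.4 to 331 CPM (median 213) in tumors. No tumor overlapped a normal kidney, with tumor 7 the lowest tumor and normal kidneys 5 and 7 the highest kidneys. Hk2 was 35-fold higher in tumors (log2 fold change 5.13, SE 0.41, edgeR adjusted p = 1.69e-09). Hk1 (chr10:62268855-62379908), the housekeeping form, lay at 107 to 209 CPM (median 169) in normal kidneys and 156 to 218 CPM (median 208) in tumors. Of the tumors, 5 of 10 stood above every normal kidney, and the rise was small (log2 fold change 0.31, SE 0.12, edgeR adjusted p = 0.042). The Hk1 call was lost when any one of 11 libraries was left out (normal kidneys 1, 2, 5, 8 and 9; tumors 1, 2, 5, 6, 7 and 9), with log2 fold changes of 0.26 to 0.31 and adjusted p of 0.0559 to 0.0751. It was also lost without normal kidneys 5, 7 and 8 together (log2 fold change 0.22, SE 0.12, edgeR adjusted p = 0.123) and without normal kidney 9 and tumor 7 together (0.24, SE 0.12, edgeR adjusted p = 0.095).

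Both minor hexokinases rose as well. Hkdc1, a hexokinase-like gene that neighbors Hk1 on chromosome 10, read 1.57 to 10.8 CPM (median 6.67) in normal kidneys and 3.16 to 121 CPM (median 24.9) in tumors (log2 fold change 2.45, SE 0.47, edgeR adjusted p = 0.000189). In all, 9 tumors exceeded every normal kidney, and tumor 6 did not. Hk3, a form of white blood cells, read 0.297 to 1.5 CPM (median 0.643) in normal kidneys and 0.689 to 23.8 CPM (median 1.78) in tumors (log2 fold change 2.33, SE 0.59, edgeR adjusted p = 0.00268), and the highest value was in tumor 7, the library with the highest macrophage and neutrophil sum. Without tumor 7 the Hk3 log2 fold change was 1.09 with an adjusted p of 0.00434. Per length of all exon bases, Hk1 made up 88.2% ± 5.5 (SD) of hexokinase mRNA in normal kidneys and 36.9% ± 8.16 (SD) in tumors, and Hk2 4.64% ± 3.28 (SD) and 51.5% ± 9.13 (SD) (n = 10 each). With the length of the principal transcript in place of all exon bases, Hk1 kept the larger tumor share (52.7% against 36.6% for Hk2), so which of the pair led in tumors depended on the length used. Within a library, Hk2 over Hk1 had a log2 ratio of -4.56 ± 1.12 in normal kidneys and 0.49 ± 0.58 in tumors (SD, n = 10 each). No tumor overlapped a kidney in this ratio (difference 5.05, permutation test adjusted p = 5.75e-05).

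Gpi1, which turns glucose-6-phosphate into fructose-6-phosphate, read 352 to 808 CPM (median 403) in normal kidneys and 913 to 1794 CPM (median 1464) in tumors. All tumors lay above all normal kidneys, of which normal kidney 9 was the highest (log2 fold change 1.73, SE 0.16, edgeR adjusted p = 1.59e-08). The next enzyme, phosphofructokinase, commits sugar to glycolysis and exists as liver (Pfkl), muscle (Pfkm) and platelet (Pfkp) forms. Pfkp (chr13:6579768-6648777) read 59.8 to 124 CPM (median 81.6) in normal kidneys and 1000.3 to 1822 CPM (median 1416) in tumors, with no overlap and a 16.2-fold rise (log2 fold change 4.02, SE 0.17, edgeR adjusted p = 4.54e-13). Pfkl (chr10:77986947-78010083) read 47.7 to 110.2 CPM (median 81.4) in normal kidneys and 197 to 386 CPM (median 330.3) in tumors, also without overlap (log2 fold change 2.01, SE 0.15, edgeR adjusted p = 1.18e-09). Pfkm (chr15:98092589-98132451) went the other way, at 15.2 to 71.7 CPM (median 55.1) in normal kidneys and 17 to 36.9 CPM (median 26.5) in tumors (log2 fold change -0.91, SE 0.25, edgeR adjusted p = 0.00436), and the groups overlapped through normal kidneys 5, 7 and 8, the lowest kidneys.

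The mix of phosphofructokinases therefore differed. Pfkp held 21.4% ± 9.44 (SD) of the step per length in normal kidneys and 65.9% ± 2.47 (SD) in tumors, while Pfkm held 42.2% ± 10.1 (SD) and 4.76% ± 0.67 (SD) (n = 10 each). By principal transcript length the Pfkp shares were 36.7% and 78.5% and the Pfkm shares 27.4% and 2.04%. Pfkp over Pfkl had a log2 ratio of -0.86 ± 0.65 in normal kidneys and 1.17 ± 0.16 in tumors (SD, n = 10 each), with no overlap (difference 2.03, permutation test adjusted p = 5.75e-05). Pfkm over Pfkl had a log2 ratio of 0.18 ± 0.52 in normal kidneys and -2.63 ± 0.19 in tumors (SD, n = 10 each). It fell, again with no overlap (difference -2.82, permutation test adjusted p = 5.75e-05).

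PFKFB enzymes make and break fructose-2,6-bisphosphate, the strongest activator of phosphofructokinase. Pfkfb3 (chr2:11471433-11554077), the form with the highest kinase activity and a known HIF target, read 13.5 to 70.5 CPM (median 25.7) in normal kidneys and 103 to 257 CPM (median 161) in tumors with no overlap (log2 fold change 2.28, SE 0.28, edgeR adjusted p = 8e-07). Pfkfb4 read 6.16 to 11.8 CPM (median 7.91) in normal kidneys and 14.3 to 33.6 CPM (median 18.7) in tumors, likewise without overlap (log2 fold change 1.35, SE 0.16, edgeR adjusted p = 6.88e-07). The liver form Pfkfb1 (log2 fold change 0.38, SE 0.20, edgeR adjusted p = 0.135) and the heart form Pfkfb2 (log2 fold change -0.44, SE 0.20, edgeR adjusted p = 0.0792) did not pass. Pfkfb2 passed when normal kidney 7, normal kidney 9 or tumor 6 was left out (log2 fold change -0.55 to -0.50, adjusted p 0.00496 to 0.0401) and without normal kidney 9 and tumor 7 together (-0.52, SE 0.15, edgeR adjusted p = 0.00624). Of its transcript, 23.9% of the 100-base windows of the principal form also occur in transcripts of another gene. Pfkfb3 over Pfkfb2 had a log2 ratio of 1.53 ± 0.75 in normal kidneys and 4.33 ± 0.49 in tumors (SD, n = 10 each). The groups did not overlap (difference 2.80, permutation test adjusted p = 5.75e-05). Pfkfb4 over Pfkfb2 rose by 1.71 and Pfkfb1 over Pfkfb2 by 0.76 on the log2 scale (permutation test adjusted p = 0.000146 and 0.0226).

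Aldolase cuts the doubly phosphorylated sugar into a pair of triose phosphates. Aldoa, the ubiquitous form, read 824 to 2013 CPM (median 999) in normal kidneys and 1567 to 2496 CPM (median 2051) in tumors, and the groups met only through normal kidney 9, the highest kidney (log2 fold change 0.92, SE 0.15, edgeR adjusted p = 4.42e-05). The brain form Aldoc read 5.7 to 48.4 CPM (median 14.3) in normal kidneys and 13.5 to 40.7 CPM (median 30.2) in tumors (log2 fold change 0.83, SE 0.31, edgeR adjusted p = 0.0329). Its call was lost without any one of normal kidneys 1, 3, 5, 6 and 8 and tumors 5 and 6 (log2 fold change 0.74 to 0.81, adjusted p 0.0516 to 0.0599), and without normal kidneys 5, 7 and 8 together (log2 fold change 0.51, SE 0.28, edgeR adjusted p = 0.131). Aldoc over Aldoa did not differ detectably, at 0.08 on the log2 scale (SE 0.26, permutation test adjusted p = 0.789). Tpi1, which interconverts the triose phosphates, read 308 to 1175 CPM (median 592) in normal kidneys and 1109 to 2347 CPM (median 2027) in tumors, and every tumor but tumor 7 exceeded every normal kidney (log2 fold change 1.69, SE 0.20, edgeR adjusted p = 4.59e-07).

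Gapdh, the enzyme after it and often a reference gene, behaved unlike any other member. Its deposited counts were 1262 to 2609 in normal kidneys 5, 7 and 10 and 90 to 165 in the other 7, and 7535 to 9031 in tumors 1, 4 and 6 and 342 to 1035 in the other 7. In CPM it read 5.1 to 136 CPM (median 8.58) in normal kidneys and 15.8 to 465 CPM (median 21.1) in tumors, far under Tpi1 and Pgk1, its neighbors in the path. No other gene among the 15354 tested had these 6 libraries above all others of their group. The rise in tumors passed narrowly (log2 fold change 2.22, SE 0.87, edgeR adjusted p = 0.0407) and was lost without any one of normal kidneys 1, 2, 3, 4, 6, 8 and 9 and tumors 1, 4 and 6 (log2 fold change 1.81 to 2.11, adjusted p 0.062 to 0.0923), and without normal kidneys 5, 7 and 8 together (log2 fold change 2.50, SE 1.04, edgeR adjusted p = 0.0529). Without normal kidney 10 the log2 fold change was higher (2.91, SE 0.88, edgeR adjusted p = 0.0104). Of the 100-base windows of its principal transcript, 78% also occur in transcripts of 84 other genes, and Gm7336, the gene that shares most, had 16953 counts over the 20 libraries against 34537 for Gapdh. The part of these copies in the level and in its split was not tested, and the Gapdh value is uncertain.

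**Figure D2:**
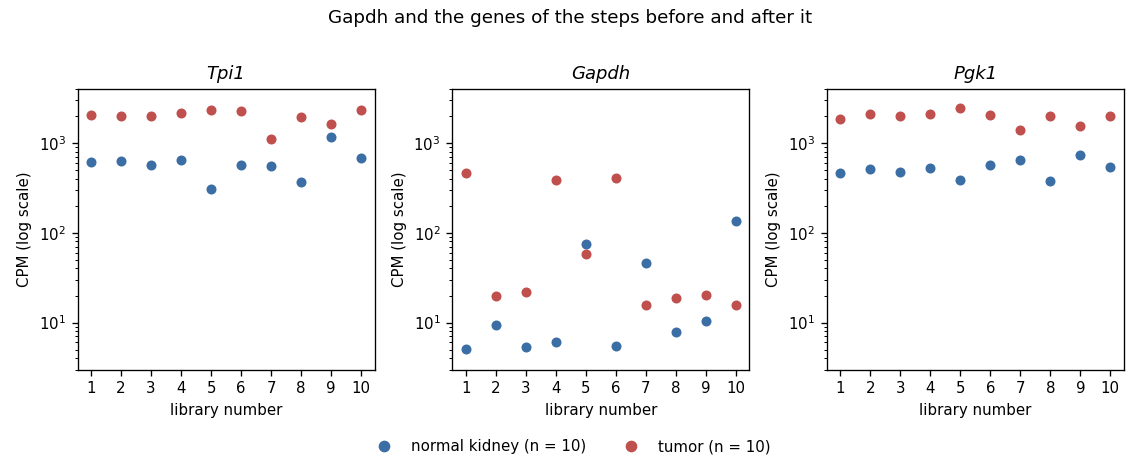
CPM on a log scale of Tpi1, Gapdh and Pgk1 in each numbered normal kidney (blue) and tumor (red). Tpi1 and Pgk1 lie between 308 and 2439 CPM in every library, while Gapdh lies between 5.1 and 465 CPM and jumps in tumors 1, 4 and 6 and normal kidneys 5, 7 and 10.

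Pgk1, which makes the first ATP of the path, read 379 to 739 CPM (median 516) in normal kidneys and 1399 to 2439 CPM (median 1992) in tumors, with no overlap (log2 fold change 1.90, SE 0.14, edgeR adjusted p = 6.25e-10). It shares 67.0% of its transcript windows with other genes, and the copy that shares most, Pgk1-rs7, had 1623 counts over all libraries against 494321 for Pgk1. How reads that match several genes were counted is not given, so a low copy count, here or below, cannot show that none were lost. Phosphoglycerate mutase was the step at which isozymes parted most. Pgam1 (chr19:41911871-41918664), the form of most tissues, read 169 to 341 CPM (median 229.7) in normal kidneys and 750.0 to 1106 CPM (median 959) in tumors, each tumor above each kidney (log2 fold change 1.97, SE 0.14, edgeR adjusted p = 3.23e-10). Pgam1 shares 39.7% of its transcript windows with other genes, and Pgam2 shares 0%. The copy that shares most, Pgam1-ps2, had 2339 counts over all libraries against 240520 for Pgam1. Pgam2 (chr11:5801640-5803733), the muscle form, read 17.9 to 72 CPM (median 52) in normal kidneys and 2.16 to 6.38 CPM (median 2.98) in tumors, each tumor below each kidney and 14.4-fold lower (log2 fold change -3.85, SE 0.30, edgeR adjusted p = 1.24e-09). Normal kidneys 5, 7 and 8, with the high injury marker sums, were the lowest kidneys for Pgam2, at 23.6, 17.9 and 20.5 CPM. The remaining kidneys read 50.3 to 72 CPM.

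Pgam2 thus went from 29.8% ± 10.1 (SD) of the step per length in normal kidneys to 0.778% ± 0.334 (SD) in tumors (n = 10 each), and the principal transcript length gave 29.2% and 0.754%. Pgam2 over Pgam1 had a log2 ratio of -1.32 ± 0.81 in normal kidneys and -7.09 ± 0.55 in tumors (SD, n = 10 each). It was the furthest shift of the 20 isozyme ratios (difference -5.77, permutation test adjusted p = 5.75e-05). Skeletal muscle markers summed to 0.126 to 0.863 CPM in normal kidneys and 4.24 to 24.8 CPM in tumors, with 1 of 4 tested and that 1 higher. The part of cell content in the Pgam2 fall was not tested.

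Enolase was led by Eno1 in both groups. Eno1 read 867 to 1484 CPM (median 1042) in normal kidneys and 2607 to 4409.6 CPM (median 4238) in tumors without overlap (log2 fold change 1.82, SE 0.14, edgeR adjusted p = 1.56e-09) and made up 98.5% ± 0.376 (SD) of enolase per length in normal kidneys and 99.2% ± 0.18 (SD) in tumors. It shares 59.0% of its transcript windows with other genes, mostly Eno1b, which had 24571 counts over all libraries against 1016079. The neuronal form Eno2 was low and rose without overlap, at 0.679 to 3.87 CPM (median 1.26) in normal kidneys and 4.09 to 7.74 CPM (median 5.15) in tumors (log2 fold change 1.72, SE 0.25, edgeR adjusted p = 8.11e-06). Its ratio to Eno1 differed by 0.01 on the log2 scale (SE 0.22, permutation test adjusted p = 0.946). The muscle form Eno3 rose less (log2 fold change 0.75, SE 0.19, edgeR adjusted p = 0.00216), so that Eno3 over Eno1 fell by 1.09 (permutation test adjusted p = 0.000172).

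Pyruvate kinase closes the path, and here both isozymes rose, the minor one more. Pkm (chr9:59656368-59679375), whose transcript is spliced to the M1 or M2 form that gene counts cannot separate, read 379 to 994 CPM (median 460.2) in normal kidneys and 2552 to 3315 CPM (median 2943) in tumors. No tumor overlapped a kidney, normal kidney 7 being the highest kidney (log2 fold change 2.53, SE 0.17, edgeR adjusted p = 1.58e-10). Pklr (chr3:89136142-89146784), the form of liver, red cells and proximal tubule, read 20.5 to 130.3 CPM (median 46.1) in normal kidneys and 366 to 1828 CPM (median 1359) in tumors, again with no overlap and with tumor 7 far below the other tumors (log2 fold change 4.25, SE 0.40, edgeR adjusted p = 2.36e-08), a 19-fold rise. Leaving out normal kidneys 5, 7 and 8 gave a log2 fold change of 4.96, SE 0.37, edgeR adjusted p = 3.7e-09. Per length, Pkm was at 102 ± 36.9 CPM per kilobase in normal kidneys and 588 ± 51.8 in tumors, and Pklr at 20.7 ± 14 and 392 ± 143 (SD, n = 10 each). The Pklr share went from 16.2% ± 8.7 (SD) to 38.8% ± 10.1 (SD), or from 9.74% to 25.9% by principal transcript length. Pkm over Pklr had a log2 ratio of 2.55 ± 0.94 in normal kidneys and 0.70 ± 0.69 in tumors (SD, n = 10 each). It fell, with the groups overlapping (difference -1.84, permutation test adjusted p = 0.000566). Red cell markers overlapped as well, at 595 to 5918 CPM in normal kidneys and 510.5 to 4470.0 CPM in tumors, and 0 of 5 passed.

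Lactate dehydrogenase reversed its order. Ldha (chr7:46841475-46855627) encodes the enzyme that favors lactate formation. Its window above holds the most motif matches of the 8 shown, with each palindrome CACGTG counted on both strands. Ldha read 457 to 1159 CPM (median 574) in normal kidneys and 1889 to 3252 CPM (median 2835) in tumors. Every tumor was above every kidney, normal kidney 9 being the highest kidney and tumor 7 the lowest tumor (log2 fold change 2.04, SE 0.17, edgeR adjusted p = 4.85e-09). Ldhb (chr6:142490249-142507957), which favors pyruvate, read 678 to 2162 CPM (median 1185) in normal kidneys and 280.2 to 1347 CPM (median 1073) in tumors and did not pass (log2 fold change -0.31, SE 0.24, edgeR adjusted p = 0.292). Ldhb therefore held 78.6% ± 6.61 (SD) of the step per length in normal kidneys and 41.4% ± 7.78 (SD) in tumors, where Ldha took 58.6% ± 7.78 (SD). By principal transcript length the Ldha share was 29.5% and then 68.6%. Ldha over Ldhb had a log2 ratio of -1.92 ± 0.51 in normal kidneys and 0.52 ± 0.49 in tumors (SD, n = 10 each). Again no tumor overlapped a kidney (difference 2.44, permutation test adjusted p = 5.75e-05). Ldhd, the mitochondrial enzyme for D-lactate, fell, at 192 to 817 CPM (median 381) in normal kidneys and 170.4 to 287 CPM (median 225) in tumors (log2 fold change -0.75, SE 0.22, edgeR adjusted p = 0.00888). Of the tumors, 3 lay below every kidney.

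Lactate leaves and enters cells through monocarboxylate carriers. Slc16a3 (chr11:120948480-120960868), which encodes the exporter MCT4 of glycolytic cells, read 1.74 to 7.88 CPM (median 3.46) in normal kidneys and 364 to 509 CPM (median 458) in tumors. The groups lay far apart, and at 105-fold this was the largest rise among the 41 members (log2 fold change 6.71, SE 0.28, edgeR adjusted p = 4.54e-13). Slc16a1 (chr3:104638668-104658462), encoding the bidirectional carrier MCT1, read 28.3 to 319 CPM (median 61.3) in normal kidneys and 277 to 555 CPM (median 434) in tumors. The groups met only at normal kidney 7, with the highest injury sum, and tumor 9 (log2 fold change 2.08, SE 0.36, edgeR adjusted p = 7.52e-05). Without normal kidneys 5, 7 and 8 the rise was larger (log2 fold change 3.04, SE 0.19, edgeR adjusted p = 4.46e-10). In the tumors the pair was near parity, Slc16a3 holding 47.3% ± 4.27 (SD) per length against 5.34% ± 4.64 (SD) in normal kidneys, and 52.4% against 6.42% by principal transcript length. Slc16a3 over Slc16a1 had a log2 ratio of -4.56 ± 1.21 in normal kidneys and -0.15 ± 0.25 in tumors (SD, n = 10 each). The difference left no overlap (difference 4.41, permutation test adjusted p = 5.75e-05).

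**Figure D3:**
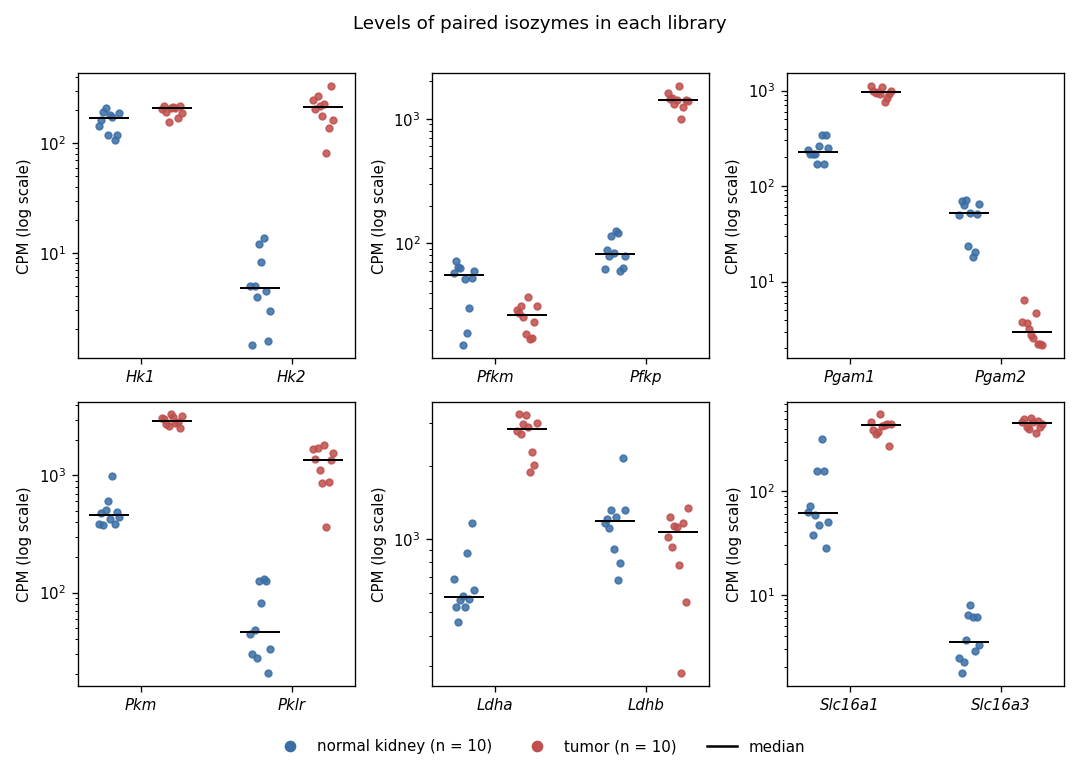
CPM on a log scale of 6 isozyme pairs in every library, normal kidneys in blue and tumors in red, with lines at the medians. Hk2, Pfkp, Pgam1, Pkm, Pklr, Ldha and Slc16a3 show every tumor above every normal kidney, Pgam2 every tumor below, and Hk1, Pfkm, Ldhb and Slc16a1 overlap.

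Pyruvate dehydrogenase kinases switch off the complex that feeds pyruvate to the mitochondrion, and 1 of the 4 rose. Pdk1 (chr2:71873224-71903858), a known HIF target, read 42.5 to 67.7 CPM (median 54) in normal kidneys and 131 to 269 CPM (median 154) in tumors, without overlap (log2 fold change 1.69, SE 0.14, edgeR adjusted p = 3.59e-09). Pdk2 (log2 fold change 0.16, SE 0.24, edgeR adjusted p = 0.597) and Pdk3 (log2 fold change -0.02, SE 0.19, edgeR adjusted p = 0.948) did not pass. Pdk4, a kinase induced by fasting and stress hormones, varied widely within both groups, at 26.3 to 2628 CPM (median 271) in normal kidneys and 35.8 to 2855 CPM (median 479.8) in tumors (log2 fold change 0.40, SE 0.83, edgeR adjusted p = 0.718). Without tumor 5, the highest library, its log2 fold change was -0.11 (adjusted p = 0.927), while without normal kidneys 5, 7 and 8 it was 2.07 (adjusted p = 0.0553). Pdk1 over Pdk2 had a log2 ratio of -3.23 ± 0.60 in normal kidneys and -1.76 ± 0.36 in tumors (SD, n = 10 each). It rose (difference 1.47, permutation test adjusted p = 0.000115), while Pdk3 over Pdk2 and Pdk4 over Pdk2 did not pass (adjusted p = 0.66 and 0.689 by permutation test). The target of these kinases, Pdha1, the catalytic subunit of pyruvate dehydrogenase, read 299.7 to 407 CPM (median 357) in normal kidneys and 212 to 440.2 CPM (median 307) in tumors and did not pass (log2 fold change -0.21, SE 0.12, edgeR adjusted p = 0.148). Without tumor 5 it did (log2 fold change -0.29, adjusted p = 0.0344).

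**Figure D4:**
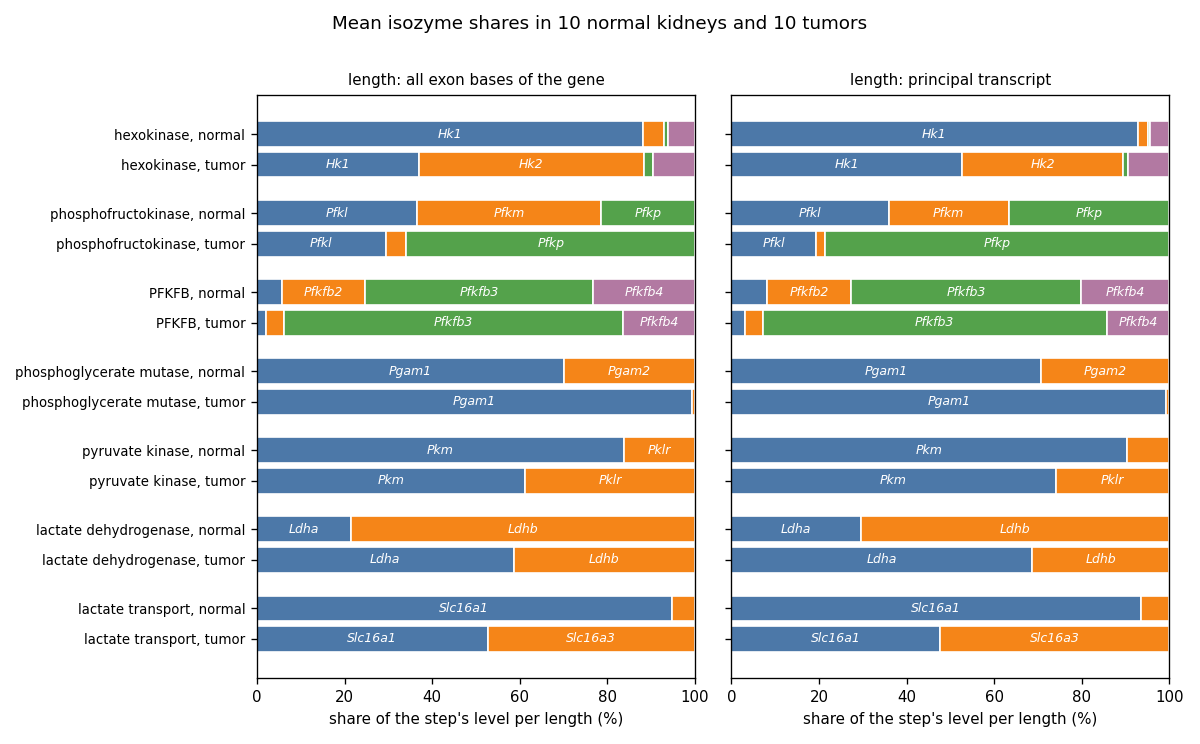
Mean share of each isozyme in the summed level per length of its step, in 10 normal kidneys and 10 tumors, with length taken as all exon bases (left) or as the principal transcript (right); unlabelled slices follow the order of the gene names (Hk3, Hkdc1, Pfkfb1). On both scales Pgam2 shrinks from 29.8% or 29.2% to under 1%, and Ldha grows past Ldhb.

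The enzymes that run glycolysis backwards did not move as a body. Pcx, which starts glucose synthesis from pyruvate, fell, at 247 to 1361 CPM (median 707) in normal kidneys and 125 to 648 CPM (median 436) in tumors (log2 fold change -0.96, SE 0.28, edgeR adjusted p = 0.00703). Fbp2, the minor muscle form of fructose bisphosphatase, fell as well, at 27.3 to 82.1 CPM (median 51.1) in normal kidneys and 10.2 to 52.2 CPM (median 24.6) in tumors (log2 fold change -0.87, SE 0.27, edgeR adjusted p = 0.0104), with 7 of 10 tumors under every kidney. Fbp1, the main form, read 146 to 1285 CPM (median 569) in normal kidneys and 226 to 1057 CPM (median 959) in tumors and did not pass (log2 fold change 0.43, SE 0.32, edgeR adjusted p = 0.277). Of the tumors, 9 lay between 804 and 1057 CPM, and tumor 7 stood alone below them. Fbp1 passed without normal kidney 9 and tumor 7 together (log2 fold change 0.69, SE 0.27, edgeR adjusted p = 0.0379). Pck2, the mitochondrial PEP carboxykinase, rose, at 23.6 to 34.7 CPM (median 27.6) in normal kidneys and 32.1 to 66.7 CPM (median 52.3) in tumors, with 9 tumors above every kidney (log2 fold change 0.91, SE 0.13, edgeR adjusted p = 4.21e-06).

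Cytosolic Pck1, the classical control point of gluconeogenesis, read 389.9 to 2686 CPM (median 1643) in normal kidneys and 157 to 3613 CPM (median 569) in tumors and did not pass (log2 fold change -0.58, SE 0.54, edgeR adjusted p = 0.396). Tumors 5 and 8 held 2903 and 3613 CPM, above every normal kidney, and the other 8 tumors 157 to 858 CPM. The same tumors had the highest G6pc, 566 and 711 CPM against 11.6 to 303 CPM in the rest. G6pc, which frees glucose from glucose-6-phosphate, read 80.7 to 1182 CPM (median 631) in normal kidneys and 11.6 to 711 CPM (median 246) in tumors and fell short of the threshold (log2 fold change -1.21, SE 0.52, edgeR adjusted p = 0.0594). It passed without any one of normal kidneys 5 and 7 and tumors 5, 7 and 8 (log2 fold change -1.49 to -1.07, adjusted p 0.024 to 0.0478), and without normal kidneys 5, 7 and 8 together (log2 fold change -1.46, SE 0.50, edgeR adjusted p = 0.0193). Khk, which feeds fructose into the path, read 150.4 to 1268 CPM (median 422) in normal kidneys and 66.8 to 411 CPM (median 282) in tumors and fell short too (log2 fold change -0.74, SE 0.31, edgeR adjusted p = 0.0579). It passed without any one of normal kidneys 5, 7 and 8 and tumor 5 (log2 fold change -0.84 to -0.81, adjusted p 0.0232 to 0.0453), and without those 3 kidneys together (log2 fold change -1.03, SE 0.29, edgeR adjusted p = 0.00669). Tumor 7, with the lowest proximal tubule marker sum, was the lowest tumor for G6pc, Fbp1, Pcx and Khk. Normal kidney 7, with the highest injury sum, was the lowest kidney for the same 4 genes. The part of cell content in these values was not tested.

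At each one-way step the forward enzymes nevertheless gained on the reverse ones. Summed hexokinases over G6pc had a log2 ratio of -3.31 ± 1.40 in normal kidneys and -0.28 ± 1.73 in tumors (SD, n = 10 each). It rose, with 4 of 10 tumors above every kidney (difference 3.02, permutation test adjusted p = 0.000756). Phosphofructokinases over both fructose bisphosphatases had a log2 ratio of -3.53 ± 0.62 in normal kidneys and -1.68 ± 0.46 in tumors (SD, n = 10 each). This was the opposed pair without overlap between groups (difference 1.85, permutation test adjusted p = 5.75e-05). Pyruvate kinases over both PEP carboxykinases had a log2 ratio of -1.68 ± 1.18 in normal kidneys and 2.33 ± 1.51 in tumors (SD, n = 10 each). Here 8 of 10 tumors lay above every kidney (difference 4.00, permutation test adjusted p = 7.67e-05). These are ratios of mRNA per length within a library, which no scaling between libraries can move, and they say nothing of enzyme amount or flux. Each sums isozymes, so its difference depends on the length used, here all exon bases. Mean phosphofructokinase sums went from 32.8 to 161 CPM per kilobase, or from 59.0 to 435 by principal transcript length. Mean hexokinase sums went from 21.2 to 66.1, or from 44.7 to 101. Ratios by the principal length were not computed. In the isozyme pairs of the gluconeogenic arm, Pck2 over Pck1 rose by 1.89 and Fbp2 over Fbp1 fell by 1.57 on the log2 scale (permutation test adjusted p = 0.00795 and 0.00353). Of all 23 ratios, 14 rose, 5 fell and 4 did not pass.

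**Figure D5:**
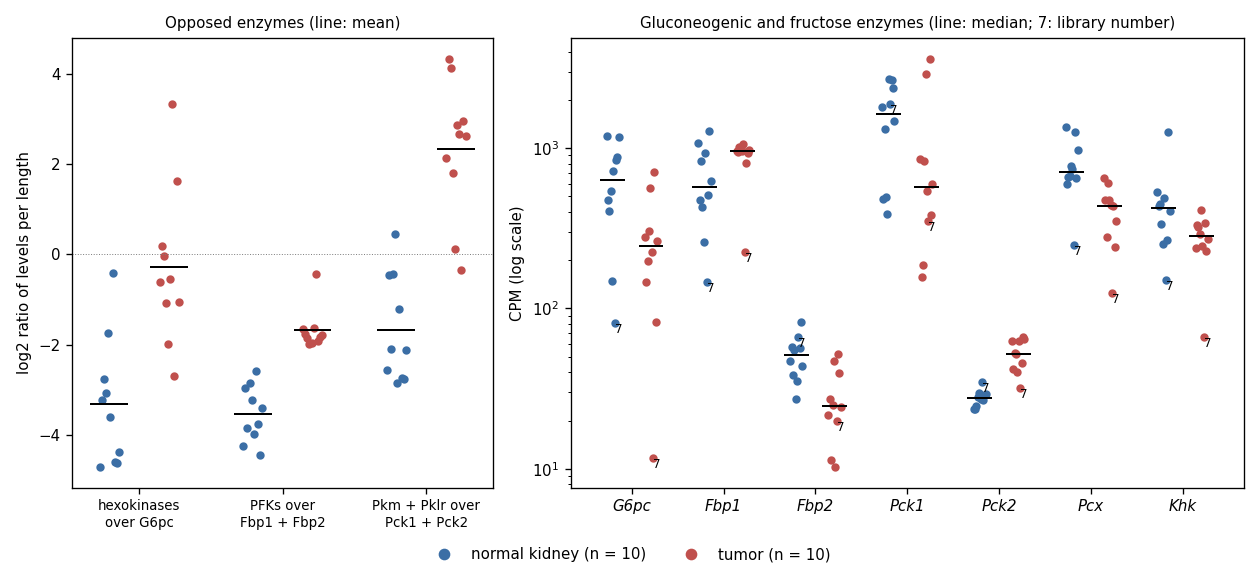
Left, log2 ratio of levels per length of forward over reverse enzymes in each library with lines at the group means; right, CPM on a log scale of 7 gluconeogenic and fructose genes with lines at the medians and the libraries numbered 7 marked. The middle ratio separates the groups (means -3.53 and -1.68), while Fbp2 and Pcx, which fell, and Pck1, G6pc, Fbp1 and Khk, which did not pass, all overlap between groups.

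Members differed in how evenly tumors carried them. The highest tumor exceeded the lowest by 1.3 times for Pkm, 1.4 for Hk1, 1.4 for Slc16a3 and 1.47 for Pgam1. At the other end the same measure was 79.6 for Pdk4, 61.3 for G6pc, 38.1 for Hkdc1, 34.6 for Hk3, 29.5 for Gapdh and 23 for Pck1. Tumor 7 alone set the low end for G6pc (11.6 CPM, next 82.7) and the high end for Hk3 (23.8 CPM, next 2.45). Pdk4 was as uneven in normal kidneys (99.9 times) and Hkdc1 less so (6.88 times). Tumor 7 was the lowest tumor for 24 of the 41 members, and normal kidney 9 the highest kidney for 14.

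Around the members, a further list of 45 genes of glucose, glycogen, pyruvate and lactate handling was followed, of which 40 had enough counts to be tested. In it 14 rose and 7 fell (35% and 17.5%, against the 23.6% and 23.8% of all genes given above), with a median log2 fold change of 0.12. Without normal kidneys 5, 7 and 8 the number that fell was 12, in a fit where 8245 genes passed over the whole table against 7292. The largest fall was in Slc16a7, encoding the high-affinity carrier MCT2, at 32.2 to 340.0 CPM (median 253) in normal kidneys and 0.59 to 6.36 CPM (median 1.21) in tumors (log2 fold change -6.77, SE 0.60, edgeR adjusted p = 7.84e-09). The lowest kidneys for Slc16a7 were normal kidneys 5, 7 and 8, with the high injury sums, at 44.2, 32.2 and 72 CPM. The remaining kidneys read 127 to 340.0 CPM. Among the carriers, MCT4 rose and MCT2 fell by like amounts on the log2 scale. Emb, encoding embigin, a partner of MCT2, fell, at 33.5 to 49.4 CPM (median 38.3) in normal kidneys and 1.69 to 42.1 CPM (median 2.53) in tumors (log2 fold change -2.52, SE 0.54, edgeR adjusted p = 0.00057). Tumor 7 was the highest tumor, the next highest being at 5.55 CPM, and without tumor 7 the log2 fold change of Emb was -3.79, SE 0.19, edgeR adjusted p = 3.83e-12. Bsg, encoding basigin, the partner of MCT1 and MCT4 and named here after its values were seen, rose (log2 fold change 1.83, SE 0.19, edgeR adjusted p = 1.26e-07).

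Glycogen genes stood at both ends. Ugp2, which makes UDP-glucose, read 140.2 to 206 CPM (median 159) in normal kidneys and 333 to 3158 CPM (median 1834) in tumors without overlap (log2 fold change 3.45, SE 0.27, edgeR adjusted p = 1.6e-09), and the branching enzyme Gbe1 rose without overlap (log2 fold change 2.37, SE 0.21, edgeR adjusted p = 1.11e-08). Pygl, the liver glycogen phosphorylase that breaks glycogen down, fell, at 19.5 to 47.4 CPM (median 38) in normal kidneys and 0.911 to 30.4 CPM (median 3.21) in tumors (log2 fold change -2.33, SE 0.50, edgeR adjusted p = 0.000689). Tumor 7 was again the highest tumor, and Pygl without tumor 7 had a log2 fold change of -3.02, SE 0.40, edgeR adjusted p = 2.18e-06. The third of the largest rises was Gpd2, the mitochondrial enzyme of the glycerol phosphate shuttle, at 20.8 to 82.8 CPM (median 43.7) in normal kidneys and 74.4 to 231 CPM (median 185) in tumors (log2 fold change 1.85, SE 0.22, edgeR adjusted p = 5.56e-07).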

How the data were processed

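RNA of 10 tumors and 10 normal kidneys was flash frozen, pulverized, extracted with Trizol, enriched for poly A and sequenced in pairs by Novogene. The authors deposited that company's gene counts without normalization, on mm10 per the labels. The aligner, the counter and the use of strand are not given in the sources used here, so counts of genes with near-identical copies are uncertain. No row lacked a gene name and no library column was left unused. Groups and numbers came from the labels. The p-values set group differences against the spread between libraries of a group, not against the spread within a mouse. The main fit and the permutation tests treat the 20 libraries as independent. Tumors and normal kidneys came from the same 10 mice, but the labels do not say which samples share a mouse.

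Counts were scaled with TMM, filtered at a count minimum of 10 and tested by the quasi-likelihood method of edgeR 4.0.16 (R 4.3.3), p-values being adjusted over 15354 genes after Benjamini and Hochberg. Levels per length used the deposited length of all exon bases. Ratios are log2 of counts plus 0.5 per length, tested by two-sided permutation tests with 100000 resamples, whose p cannot fall below 1e-05, and adjusted over 23 ratios. The edgeR test was checked on simulated counts and the permutation test on simulated normally distributed values. DESeq2 and limma were not checked in this way. The simulated counts changed 200 genes, equally up and down, in independent libraries. They do not cover data in which 7292 genes passed and the groups share mice. Alternatives used other scalings, DESeq2 1.42.0, limma 3.58.1, no filter, a replicate block and libraries left out. Every member is named; full statistics went mainly to steps whose isozymes differed in direction or by over 2 log2 units. Some genes listed beside the members, and a ratio with one of them, are not reported here. The members and lists were chosen with earlier results of these data known. Motifs were sought in RefSeq windows (GRCm38.p6); protein sequences were not used here.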

Additional observations from a re-analysis of the deposited data

Results flagged for a closer look

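In groups of 10 libraries, a value was listed when its gap to the nearest library, divided by the range of the group, exceeded the critical value of Dixon's test. Of 128 groups examined (41 genes and 23 ratios in both groups), 21 values passed. For independent, normally distributed groups, chance alone lists about 1 in 20. These groups share genes and libraries, so the 21 values cannot be set against that rate. Tumor 7 gave 13 of them. Its log2 CPM was the highest for Hk3 (4.58, next 1.35) and the lowest for Tpi1 (10.12), Eno1 (11.35), Pklr (8.52), G6pc (3.55), Fbp1 (7.82, next 9.65) and Khk (6.07). Among log2 ratios it was the lowest for Hk2 over Hk1 (-0.87) and the highest for Hk3 over Hk1 (-1.94), Ldha over Ldhb (1.68), Pdk1 over Pdk2 (-0.92), Pdk3 over Pdk2 (-1.55) and phosphofructokinases over fructose bisphosphatases (-0.42, next -1.64).

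Normal kidney 9 was the lowest for Hkdc1 (0.74) and the highest for Gpi1 (9.66) and Aldoa (10.98). Normal kidney 7 was the highest for Pkm (9.96) and the lowest for Pcx (7.95), and had the highest log2 ratios of Ldha over Ldhb (-0.70) and Fbp2 over Fbp1 (-0.91). Normal kidney 2 was the lowest for Pfkfb1 (-0.29, next 0.66).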

How the results depend on the processing

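Of the 41 members, 29 kept their direction and their side of the threshold under every alternative run, as did 21 of the 23 ratios. The calls of Hk1, Aldoc and Gapdh were lost, and those of Pfkfb2, Pdk4, Pdha1, Pck1, G6pc, Fbp1 and Khk gained, under some of them. The members that fell, 5 as reported, were 9 with upper-quartile factors and with library totals, 8 with the DESeq2 test and 10 with quality weights in limma-voom, and 5 to 8 with 1 library left out. Those past a 2-fold fall, 1 as reported, were 4 with upper-quartile factors, library totals or without normal kidneys 5, 7 and 8 (chosen after seeing the data), 2 with the DESeq2 test, 5 with quality weights and 1 to 4 with 1 library left out. The listed pathway genes that fell, 7 as reported, were 13 with upper-quartile factors and with quality weights, and 12 with library totals or without normal kidneys 5, 7 and 8. Upper-quartile factors and library totals moved the median over all genes to a log2 fold change of -0.14, and the share of calls that were higher from 49.8% to 39.2% and 38.5%. Over all genes, 7292 passed as reported, 7650 with upper-quartile factors, 7404 with library totals, 7886 with the DESeq2 test and 10744 with quality weights. Of the calls with the DESeq2 test and with quality weights, 46.5% and 49.7% were higher. The all-gene number that fell was 3661 as reported and 3474 to 4201 with 1 library left out.

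Reversed signs were confined to values that did not pass. Eno2 over Eno1 (0.01 as reported) was -0.046 with a pseudocount of 2, -0.13 without normal kidney 9 and tumor 7, and -0.089 to 0.14 with 1 library left out. Aldoc over Aldoa was -0.28 without normal kidneys 5, 7 and 8 and -0.060 to 0.20 with 1 left out. Pdk2 was -0.084 without those 3 kidneys. Pdk3 was 0.058 with limma-voom, 0.0014 without a filter, 0.11 without normal kidney 9 and tumor 7, and -0.081 to 0.14 with 1 left out, and Pdk4 -0.11 to 1.10. The causes were not tested.

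Tumors and kidneys share the numbers 1 to 10, and the labels do not say that a number marks a mouse. Same-numbered deviations correlated at 0.191 to 0.377 for 9 numbers and at -0.143 for number 9, and 8 of 10 tumors correlated best with their own number, a hint from the data only. With the number as a block in the fit, 26 members rose and 6 fell, 2 of them past 2-fold. Over all genes 7865 passed in that fit, 50.6% of them higher. Gapdh lost its call (log2 fold change 1.65), G6pc (-1.47), Fbp1 (0.58) and Pdk4 (0.70) gained one, and Pdk3 was at 0.053.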
